A study of Mus musculus with 30 samples.

Results

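The 10 genes described here encode the corepressor TRIM28, its methyltransferase partner SETDB1 with the cofactor ATF7IP, the other H3K9 methyltransferases of the SUV39H and EHMT families, and the 3 heterochromatin protein 1 (HP1) readers of methylated H3K9. They are Trim28, Setdb1, Atf7ip, Suv39h1, Suv39h2, Ehmt1, Ehmt2, Cbx1, Cbx3 and Cbx5. They were chosen by name, with earlier results of these data known, as 10 of the 55401 genes of the deposited count tables. All 10 had exon counts in each of the 4 tables. The tables hold nuclear RNA-seq of mouse embryonic stem cells, as 30 libraries in 15 conditions with 2 replicates each. CGR8 is the parental line and was compared with and without 500 µM indole-3-acetic acid (IAA, an auxin) for 4 h. SYAT cells derive from 1 homozygous clone of CGR8, carry YPet and an auxin-inducible degron (AID) on both alleles of Srcap and express OsTir1, so that IAA leads to degradation of SRCAP, the ATPase that loads the histone variant H2A.Z. SYAT cells were grown without added IAA, in the presence of the TIR1 inhibitor auxinole (control), or received 500 µM IAA and were collected after 2 h, 4 h, 6 h or 8 h. In a separate experiment, SYAT cells expressing an mCherry mitotic degron were sorted into early G1 (EG1) or late G1 (LG1), as control or after 1 h of IAA. The sorting was by DNA content and by the intensity of this mitotic degron reporter. In the last table, SYAT-derived lines expressing wild-type SRCAP (wtSRCAP) or catalytically dead SRCAP (cdSRCAP), each fused to mCherry, received 1 µg/mL doxycycline for 24 h and were compared as control (in auxinole) and after 4 h of IAA, and were sorted for mCherry. All SYAT-derived conditions thus share the tagged Srcap alleles and OsTir1, and only CGR8 lacks them. Bulk RNA cannot tell apart a change in all cells from a change in the share of cells that express a gene.

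H3K9 methylation marks transcriptionally silent chromatin. TRIM28 is brought to DNA by KRAB zinc finger proteins and recruits SETDB1, which trimethylates H3K9 at endogenous retroviruses and imprinted regions in embryonic stem cells, and ATF7IP keeps SETDB1 in the nucleus. SUV39H1 and SUV39H2 trimethylate H3K9 at pericentromeric repeats, whereas EHMT1 (GLP) and EHMT2 (G9a) act as a heterodimer that sets mono- and dimethylation in euchromatin. The HP1 proteins encoded by Cbx5 (HP1 alpha), Cbx1 (HP1 beta) and Cbx3 (HP1 gamma) bind the methylated lysine through a chromodomain.

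Total exon counts per library ranged from 45617992 to 60214521 for CGR8, from 17540823 to 22873893 for the SYAT time points, from 19740778 to 26672402 for sorted cells, and from 12236493 to 26369773 for wtSRCAP and cdSRCAP cells. Levels are given below as CPM (counts scaled to a common library size), adjusted by the trimmed mean of M-values (TMM) within each table and layer. All 10 markers of mouse embryonic stem cells were present at a mean of at least 1 CPM in every table. Of 8 fibroblast markers, 3 or 4 reached that mean, and their summed level was at most 52.2 CPM against at least 1802 CPM for the stem cell markers. Of 11 markers of differentiated lineages, 10 reached it in the SYAT time course, 6 in sorted cells and 7 in each of the other tables. Their summed level was at most 273 CPM, in sorted cells. Srcap itself was between 39.9 and 60.2 CPM in the exon columns of the SYAT time course. IAA acts on the SRCAP protein, so the transcript does not check the labels. The second library at 6 h stood apart in the SYAT time course. Its TMM factor was 0.854, the lowest of the 10, and the log2 ratio of the replicates at 6 h had an SD of 0.601 over all genes tested, against 0.323 to 0.501 at the other times. In the wtSRCAP and cdSRCAP table, the first wtSRCAP library with IAA had the lowest TMM factor (0.838) and the lowest total. The intron columns do not hold the same kind of read throughout. Genes with a single exon had 0.766 intron-column reads per exon-column read in SYAT libraries and 0.775 in EG1 libraries, but 0.000345 in CGR8, 0.000239 in LG1 and 0.000427 in wtSRCAP and cdSRCAP cells. The intron columns of the SYAT time course and of EG1 therefore also hold exonic reads, but only for part of the genes. Of the single-exon genes counted, 1783 of 3031 had 0 intron-column reads in SYAT libraries and 1422 of 2471 in EG1 libraries. No difference between EG1 and LG1 is read from the intron columns.

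Trim28 was the most abundant of the 10 genes by far. Per kb of annotated exon, its median over the 15 conditions was 607.1 CPM per kb (319.5 to 919.5), at or above the percentile 99.6 of the genes tested in each table. The HP1 genes Cbx5 and Cbx1 followed, with medians of 74.55 (59.53 to 85.8) and 59.3 (44.66 to 102.7) CPM per kb, and overlapping ranges. Cbx3, the third HP1 gene, was close to 10 times lower than Cbx5 at 7.617 CPM per kb. Of the methyltransferase genes, Ehmt2 was at 35.51, Setdb1 at 20.99 and Ehmt1 at 19.18 CPM per kb, the ranges of the last pair overlapping. Atf7ip (8.726), Cbx3, Suv39h2 (7.582) and Suv39h1 (5.405) formed the low end, and the ranges of these 4 overlapped. Some of these counts can include reads of neighbours. Suv39h1 shares 14.6% of its exon length with an antisense gene, Suv39h2 shares 8.09% with Dclre1c on the opposite strand, and 7.72% of the 75-base windows of Cbx3 transcripts occur in other annotated transcripts, so the levels of these genes are less certain.

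The SYAT time course asks how the transcripts follow the loss of SRCAP. No member passed the threshold of an absolute log2 fold change over 0.5 with an adjusted p under 0.05 at 2, 4, 6 or 8 h against control, by edgeR or by DESeq2. That threshold was passed by 0%, 0%, 0.0677% and 0.00521% of the 19205 genes tested in the exon columns. At an unadjusted p under 0.05 alone, the members counted were 0 at 2 h, 0 at 4 h, 3 at 6 h (Cbx5 and Atf7ip lower, Ehmt2 higher) and 2 at 8 h (Cbx5 and Atf7ip lower), where the shares of all genes were 3.92%, 9.09%, 16.1% and 13.6%. The median log2 fold change of the 10 members was 0.09 at 6 h and 0.12 at 8 h, beside 0.01 and 0.03 over all genes tested. The members did not move as one group: by 8 h, 2 had a fitted value below 0 and 8 above it.

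**Figure D1:**
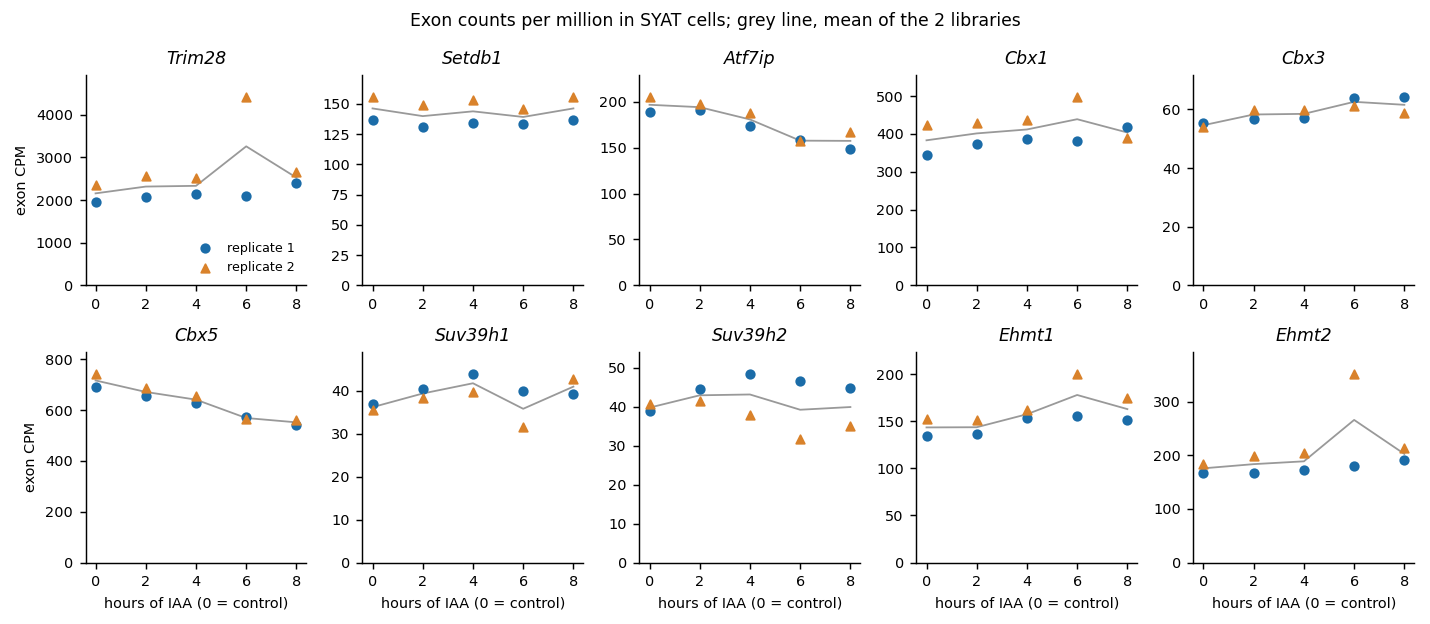
Exon CPM (linear axis from 0) of the 10 genes in each of the 10 SYAT libraries against hours of IAA; circles and triangles are replicates 1 and 2, and the grey line joins the means of the 2 libraries. Cbx5 declined from 692 and 741 CPM in the controls to 541 and 562 CPM at 8 h, and Trim28 and Ehmt2 stood high in only 1 of the 2 libraries at 6 h.

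Cbx5, the HP1 alpha gene (chromosome 15, 103191544 to 103239816, minus strand, GRCm38), showed the most regular course. It was at 692 and 741 CPM in the controls, 655 and 688 CPM at 2 h, 627 and 655 CPM at 4 h, 573 and 565 CPM at 6 h and 541 and 562 CPM at 8 h. Both libraries at every time lay below both controls, and the mean was lower at each time than at the one before. The log2 fold change was -0.16 ± 0.11 (SE) at 4 h, -0.33 ± 0.11 at 6 h and -0.38 ± 0.11 at 8 h, with edgeR adjusted p of 0.775, 0.197 and 0.177. In a slope on hours of IAA over the 10 libraries, a test added after the time courses had been seen, Cbx5 fell by 0.0497 ± 0.0108 (SE) per hour on the log2 scale, with an edgeR adjusted p of 0.0266, and 0.0112 with the replicate number as a block. Without the block it was the only one of the 10 members past an adjusted p under 0.05 in the exon columns, where 3.35% of the genes tested were. Leaving out 1 library at a time kept the slope between -0.0537 and -0.0469 and gave adjusted p between 0.00418 and 0.151. The adjusted p was above 0.05 without either control library, either 2 h library, the first 6 h library or the first 8 h library, and was 0.00418 without the 6 h library that stood apart.

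Atf7ip, which encodes the SETDB1 cofactor (chromosome 6, 136506167 to 136610862, plus strand), followed a similar course. It was at 189 and 205 CPM in the controls, 191 and 198 CPM at 2 h, 173 and 188 CPM at 4 h, 159 and 157 CPM at 6 h and 148 and 167 CPM at 8 h. The libraries at 6 h and 8 h lay below both controls, whereas those at 2 h overlapped them. The log2 fold change was -0.32 ± 0.12 (SE) at 6 h and -0.32 ± 0.12 at 8 h, with edgeR adjusted p of 0.233 and 0.275. Its slope was -0.0472 ± 0.0123 (SE) per hour on the log2 scale, with an edgeR adjusted p of 0.0533. The adjusted p was 0.0201 with the replicate number as a block, 0.0165 without the second 6 h library and 0.0471 without the second 8 h library, and lay between 0.0746 and 0.203 without any of the other 8. The rates of Cbx5 and Atf7ip thus differed by less than their errors. In the same model Setdb1, the partner of Atf7ip, had a slope of -0.000291 ± 0.0136.

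As these 2 genes had the lowest slopes of the 10, the reference sequences at their annotated starts are shown (RefSeq, GRCm38.p6; 250 bases before to 50 after the start, 5′ to 3′). Capitals mark the GC box GGGCGG on either strand, which is the site known for SP1-type factors. The Cbx5 window is chr15:103239803-103240102 (minus strand) and the Atf7ip window is chr6:136518601-136518900 (plus strand).
Cbx5: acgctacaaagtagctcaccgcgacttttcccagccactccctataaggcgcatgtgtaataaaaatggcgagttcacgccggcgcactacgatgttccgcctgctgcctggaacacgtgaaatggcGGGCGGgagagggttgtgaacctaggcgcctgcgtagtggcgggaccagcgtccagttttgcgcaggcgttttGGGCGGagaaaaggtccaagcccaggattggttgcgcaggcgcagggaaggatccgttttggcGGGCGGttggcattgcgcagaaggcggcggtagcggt
Atf7ip: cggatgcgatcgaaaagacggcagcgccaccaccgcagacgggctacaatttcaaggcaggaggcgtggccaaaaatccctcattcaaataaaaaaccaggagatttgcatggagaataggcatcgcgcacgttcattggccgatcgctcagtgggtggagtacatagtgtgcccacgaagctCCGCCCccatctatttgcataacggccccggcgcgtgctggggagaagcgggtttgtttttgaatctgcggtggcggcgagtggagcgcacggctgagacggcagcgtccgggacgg
The Cbx5 window holds 3 GC boxes and the Atf7ip window 1, and 35.7% of all 32851 promoter windows of this length hold at least 1. Each holds 1 CCAAT box, also searched on both strands (in 37.4% of all windows), and the Cbx5 window also holds an E-box (CACGTG, in 7.15%). Neither holds the ETS core CCGGAAG (in 8.86%) or the ATF site TGACGT (in 7.51%), which were also searched on both strands. With 29 CpG dinucleotides each and GC contents of 60.3% and 58.7%, both windows are rich in CpG. These traits are not particular to the 2 genes. Every other member also has a window with a GC box, with 3 each for Suv39h2 and Ehmt1. The Setdb1 window holds 1 GC box and 1 CCAAT box, an Ehmt2 window holds 2 E-boxes, and the Ehmt1 window holds 34 CpG dinucleotides. A second annotated Cbx5 start (chr15:103215303-103215602) is not shown, and its window has 8 CpG dinucleotides, a GC content of 54.7%, 1 GC box and neither a CCAAT box nor an E-box. The Atf7ip window lies downstream of the GENCODE start of the gene at 136506167, where no window is shown. Which start is used was not tested for either gene.

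The other HP1 genes did not reach an unadjusted p under 0.05 at any time. Cbx3 was at 55.4 and 53.9 CPM in the controls and at 64.2 and 59.0 CPM at 8 h, and the libraries at all 4 times lay above both controls. Its log2 fold change at 8 h was 0.17 (95% interval -0.10 to 0.45), with an edgeR adjusted p of 0.585. Cbx1 ranged from 343 to 497 CPM over the 10 libraries, with its highest value in the second 6 h library, and had a log2 fold change of 0.08 (-0.29 to 0.44) at 8 h.

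Trim28 (chromosome 7, 12999114 to 13031035, plus strand) was at 1964 and 2347 CPM in the controls, 2078 and 2552 CPM at 2 h, 2148 and 2516 CPM at 4 h, 2104 and 4411 CPM at 6 h and 2392 and 2657 CPM at 8 h. The value of 4411 CPM belonged to the 6 h library that stood apart, and the other 9 libraries lay between 1964 and 2657 CPM. At 8 h both libraries were above both controls, by a smaller margin than the gap between the controls. Over all libraries, the log2 fold change at 6 h was 0.60 ± 0.28 (SE, edgeR adjusted p 0.331). It was 1.04 (adjusted p 0.00546) without the first 6 h library and -0.03 (adjusted p 0.963) without the second. Without the filter on low counts, Trim28 and Ehmt2 both passed the threshold at 6 h. At 8 h it was 0.23 (95% interval -0.40 to 0.86). The study names Trim28 among its upregulated genes, from intronic reads at 6 h of IAA in these same libraries. Its direction here is therefore no independent evidence. DESeq2 as run here called 0 members at 6 h in the exon and in the intron columns.

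Ehmt2, the G9a gene (chromosome 17, 34898469 to 34914052, plus strand), showed the same dependence on 1 library. It was at 168 and 184 CPM in the controls, 168 and 200 CPM at 2 h, 173 and 205 CPM at 4 h, 181 and 351 CPM at 6 h and 191 and 214 CPM at 8 h. The log2 fold change at 6 h was 0.60 ± 0.25 (SE, edgeR adjusted p 0.287), 1.00 (adjusted p 0.00432) without the first 6 h library and 0.045 (adjusted p 0.934) without the second. Its partner Ehmt1 was at 135 and 152 CPM in the controls and at 156 and 200 CPM at 6 h, a log2 fold change of 0.31 ± 0.15 (SE, adjusted p 0.341), which was 0.48 (adjusted p 0.0351) without the first 6 h library and 0.12 (adjusted p 0.768) without the second. Marker lists also had raised medians at 6 h. The median log2 fold change was 0.32 over the 10 stem cell markers and 0.58 over the 5 fibroblast markers tested. It was 0.10 and -0.08 for these lists at 2 h, and 0.13 and -0.04 at 8 h. Over the 10 markers of differentiated lineages tested it was 0.49 at 6 h, but already 0.42 at 2 h, and 0.47 at 8 h. None of these markers passed the threshold, and their part in the values at 6 h was not tested.

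**Figure D2:**
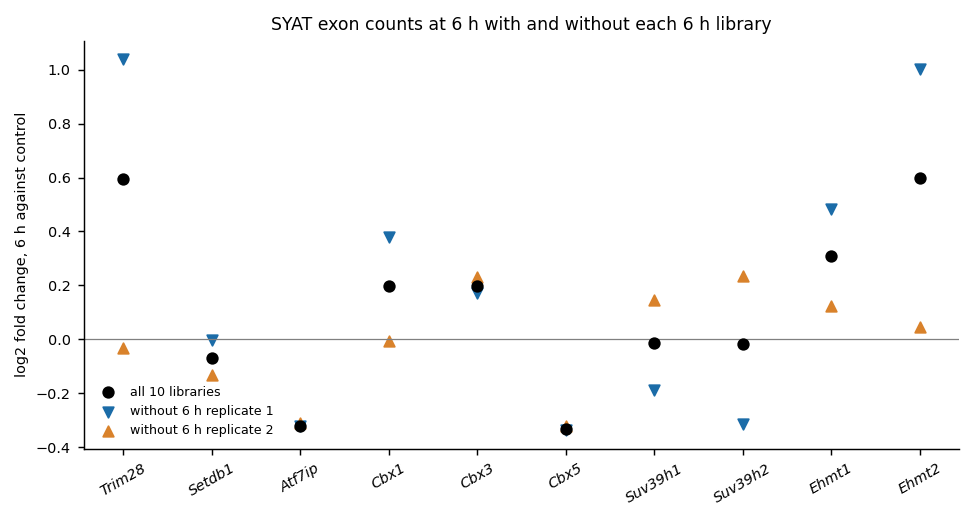
Log2 fold change of each gene at 6 h of IAA against control in SYAT exon counts, from all 10 libraries (black) and without the first (blue) or the second (orange) 6 h library. Trim28 moves between 1.04 and -0.03 and Ehmt2 between 1.00 and 0.045, whereas Cbx5 stays at -0.34 and -0.32.

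The remaining methyltransferase genes did not reach an unadjusted p under 0.05 at any time either. Setdb1 was at 137 and 156 CPM in the controls and again at 137 and 156 CPM at 8 h, a log2 fold change of 0.00 (95% interval -0.31 to 0.31). Suv39h1 ranged from 31.7 to 43.9 CPM and Suv39h2 from 31.8 to 48.3 CPM over the 10 libraries, and both had their lowest value in the second 6 h library. Their log2 fold changes at 8 h were 0.18 (-0.16 to 0.52) and 0.01 (-0.46 to 0.47).

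In the intron columns of the time course, 0 of 10 members passed the threshold at any time by edgeR or DESeq2, where 0%, 0%, 0.0136% and 0.00679% of the 14719 genes tested did at 2, 4, 6 and 8 h. An unadjusted p under 0.05 was reached by 0 members at 2 h, 0 at 4 h, 2 at 6 h (Cbx5 and Atf7ip) and 1 at 8 h (Cbx5), where the shares of all genes were 5.13%, 9.5%, 14.5% and 13.5%. The slope of Cbx5 was -0.0504 ± 0.00976 (SE) per hour with an edgeR adjusted p of 0.032, and 2.02% of genes passed. These columns also hold exonic reads for part of the genes and are no second measurement. Subtracting the exon column left intronic reads of 264 and 308 CPM for Cbx5 in the controls, 255 and 356 CPM at 6 h and 241 and 330 CPM at 8 h, so that the groups overlapped. The log2 fold change of these reads was 0.09 (95% interval -0.44 to 0.63) at 6 h and 0.00 (-0.54 to 0.53) at 8 h. The difference between the exonic and the intronic change was not tested, and the intronic interval includes the exonic value of -0.38. For Atf7ip the intronic reads gave -0.29 at 6 h and -0.08 at 8 h. Suv39h1 was at 0.849 to 3.24 CPM in the intron column and Suv39h2 had fewer intron than exon counts, so no intronic value is given for either.

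**Figure D3:**
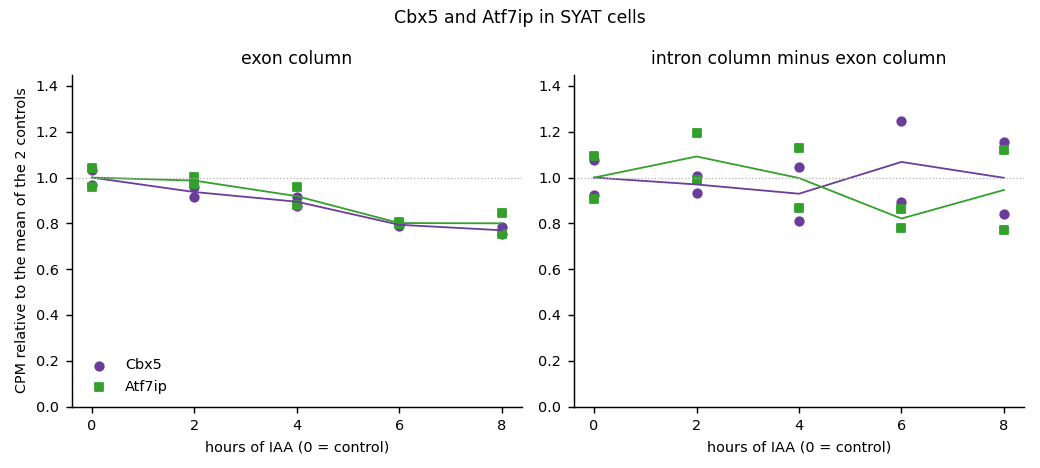
CPM of Cbx5 (circles) and Atf7ip (squares) in SYAT cells relative to the mean of their 2 controls against hours of IAA, in the exon columns (left) and after the exon column was subtracted from the intron column (right); points are libraries and lines join means. The exon values of Cbx5 decline at each time, and the intronic values of both genes overlap their controls at 8 h.

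CGR8 cells, which have neither the degron nor OsTir1, give the response to IAA where SRCAP is not degraded. The SYAT controls were in auxinole, so the CGR8 and SYAT comparisons may differ in more than the degron. None of the 10 members passed the threshold in the exon columns by edgeR or DESeq2, where 0.00988% of 20250 genes did, and 1 member had an unadjusted p under 0.05, as did 9.16% of all genes. That member was Suv39h1, at 12.5 and 15.1 CPM in the controls and 18.4 and 19.9 CPM after 4 h of IAA, with a log2 fold change of 0.47 ± 0.18 (SE, edgeR adjusted p 0.54). The 2 groups did not overlap. Trim28 was at 4385 and 3260 CPM in the controls and 3493 and 2976 CPM with IAA, and Ehmt2 at 275 and 219 CPM against 213 and 177 CPM, log2 fold changes of -0.24 (95% interval -0.61 to 0.13) and -0.34 (-0.70 to 0.02). Cbx5 was at 608 and 680 CPM against 586 and 609 CPM, a log2 fold change of -0.11 (-0.40 to 0.18). In SYAT cells at the same 4 h, the values were 0.11 for Trim28, 0.10 for Ehmt2 and -0.16 for Cbx5. CGR8 and SYAT stand in separate tables, so the difference was not tested. In the CGR8 intron columns, which hold introns only, 0 of 8 members tested passed by either tool and none had an unadjusted p under 0.05, beside 0.022% of 13634 genes past the threshold and 5.24% with such a p. Their log2 fold changes lay between -0.31 (Setdb1) and 0.16 (Atf7ip). Suv39h1 and Suv39h2 are listed at 0 there.

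The wtSRCAP and cdSRCAP lines ask whether the response to IAA depends on the activity of the SRCAP that replaces the degraded protein. In the exon columns 0 of 10 members passed the threshold by edgeR or DESeq2 in any of the 5 comparisons, and 0 had an unadjusted p under 0.05. The threshold was passed by 0.00523% of 19111 genes with IAA in wtSRCAP cells, 0% with IAA in cdSRCAP cells, 0% between the 2 controls, 0.00523% between the lines with IAA and 0% for the difference of the responses. At an unadjusted p under 0.05 these shares were 7.4%, 5.64%, 3.82%, 5.03% and 0.785%. Trim28 was at 1941 and 3217 CPM in wtSRCAP controls and 3129 and 3588 CPM with IAA, and at 2207 and 3406 CPM in cdSRCAP controls and 2781 and 3393 CPM with IAA. Its 2 replicates were further apart within each control than the groups were. Between same-numbered libraries, it rose with IAA in both wtSRCAP pairs, and in the first but not the second cdSRCAP pair. Its log2 fold changes were 0.38 (95% interval -0.32 to 1.08) and 0.14 (-0.57 to 0.84). The intervals given for these lines are from the fit without the replicate block. With the block, edgeR called 0 of 10 members in the 5 comparisons. It called 612, 345, 174, 269 and 0 of 19111 genes there. Cbx5 was at 760 and 785 CPM in wtSRCAP controls and 674 and 724 CPM with IAA, without overlap, and at 712 and 792 against 718 and 728 CPM in cdSRCAP cells, with overlap. The log2 fold changes were -0.15 (-0.59 to 0.30) and -0.06 (-0.50 to 0.38), and the difference of the responses was 0.09 (-0.53 to 0.71). Ehmt2 exons were at 223 and 245 CPM in wtSRCAP controls against 350 and 262 CPM with IAA, and at 197 and 193 against 256 and 213 CPM in cdSRCAP cells. The groups did not overlap in either line, and the log2 fold changes were 0.39 (-0.10 to 0.88) and 0.27 (-0.23 to 0.76). Each line is 1 clone, so the clone and the SRCAP version cannot be told apart.

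**Figure D4:**
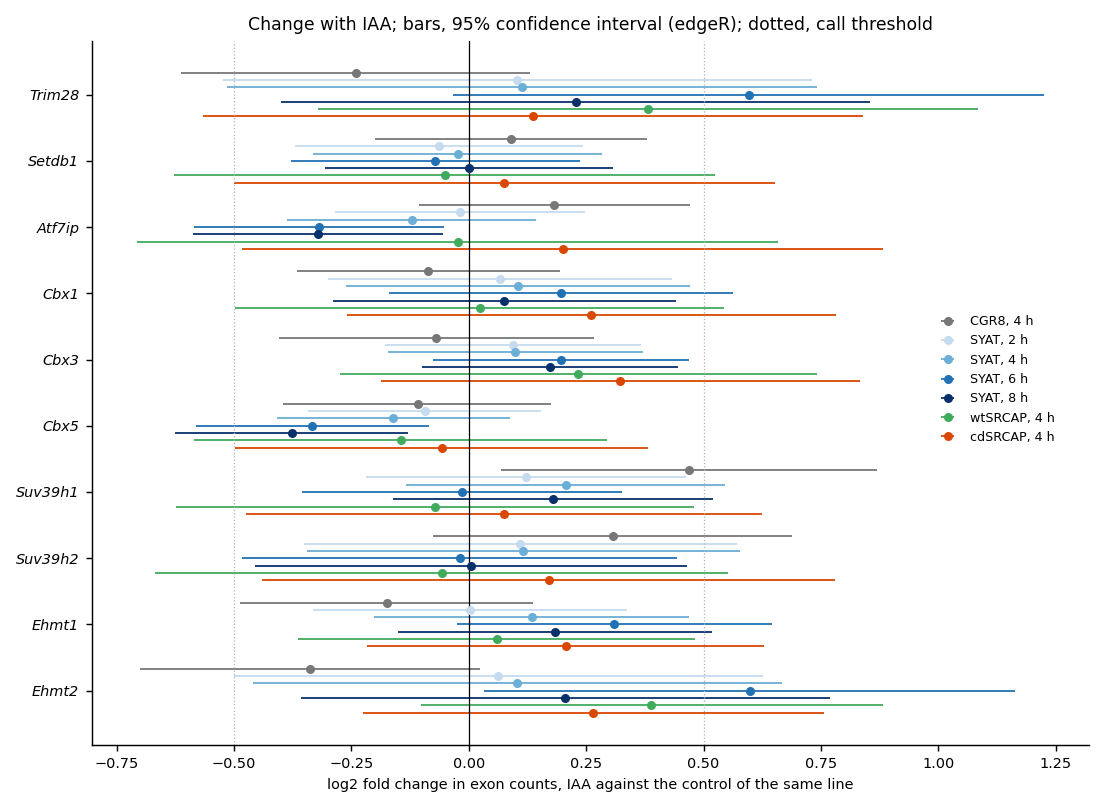
Log2 fold change in exon counts with IAA against the control of the same line for each gene (points) with the 95% confidence interval from edgeR (bars), in CGR8, SYAT, wtSRCAP and cdSRCAP cells; dotted lines mark 0.5 and -0.5. Cbx5 lies below 0 in all 7 comparisons, with intervals that exclude 0 in SYAT cells at 6 h and 8 h only; the 4 SYAT comparisons share their controls.

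In the intron columns of these lines, which hold introns only, Ehmt2 gave the largest values. It was at 35.4 and 27.3 CPM in wtSRCAP controls, 69.6 and 45.5 CPM in wtSRCAP cells with IAA, 21.7 and 22.2 CPM in cdSRCAP controls and 22.6 and 30.8 CPM in cdSRCAP cells with IAA, from between 85 and 191 counts a library. Both wtSRCAP libraries with IAA were above all the others, the higher one being the library with the lowest exon TMM factor. The log2 fold change with IAA was 0.87 ± 0.29 (SE, edgeR adjusted p 0.261) in wtSRCAP cells, 0.53 without that library, and 0.28 ± 0.29 in cdSRCAP cells, and the difference of the responses was -0.58 (95% interval -1.49 to 0.33). Between the lines with IAA it was -1.09 ± 0.29 (adjusted p 0.266), and -0.75 without the first wtSRCAP library with IAA. Trim28 introns were at 83.7 and 102.8 CPM in wtSRCAP controls and 125.9 and 117.1 CPM with IAA, against 122.9 and 115.2 and then 95.1 and 114.2 CPM in cdSRCAP cells. The difference of the responses was -0.56 ± 0.25, with an unadjusted p of 0.0468 and an adjusted p of 1.0 in edgeR. None of the 8 members tested passed the threshold by edgeR or DESeq2 in the 5 comparisons. Between the lines with IAA, Ehmt2 did pass without the filter on low counts (edgeR adjusted p 0.0408) and in DESeq2 with the replicate block (adjusted p 0.0461), but not in edgeR with the block (adjusted p 0.0858). In edgeR with the filter and without the block, 0.299% of 12702 genes passed with IAA in wtSRCAP cells and 0.236% with IAA in cdSRCAP cells. The shares were 0.102% between controls, 0.0157% between the lines with IAA and 0% for the difference of the responses. An unadjusted p under 0.05 was reached by 1, 0, 0, 2 and 1 members (Ehmt2, then Ehmt2 and Cbx3, then Trim28), where 12.4%, 11.3%, 7.07%, 10.2% and 2.54% of genes reached it.

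Sorted SYAT cells give the genes shortly after mitosis, in EG1, and later in G1. The thresholds of the study for these cells, an absolute log2 fold change over 0.25 with an unadjusted p under 0.05, were used. In the exon columns 0 of 10 members passed with 1 h of IAA in EG1, where 1.22% of 21020 genes did, 0 with IAA in LG1 (1.02%), 0 between LG1 and EG1 controls (1.44%) and 0 for the difference of the responses (0.699%), by edgeR and by DESeq2. Libraries with the same replicate number deviated together, and 9 of 10 members were higher in replicate 2 than in replicate 1 in each of the 4 conditions, the exception being Atf7ip. Trim28 was at 1146 and 1587 CPM in EG1 controls and 1258 and 1605 CPM with IAA, and at 1104 and 1553 CPM in LG1 controls and 1222 and 1855 CPM with IAA. The log2 fold changes were 0.07 (95% interval -0.58 to 0.72) and 0.21 (-0.44 to 0.86). The intervals given for sorted cells are from the fit without the replicate block, in which the gap between replicates counts as spread.

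**Figure D5:**
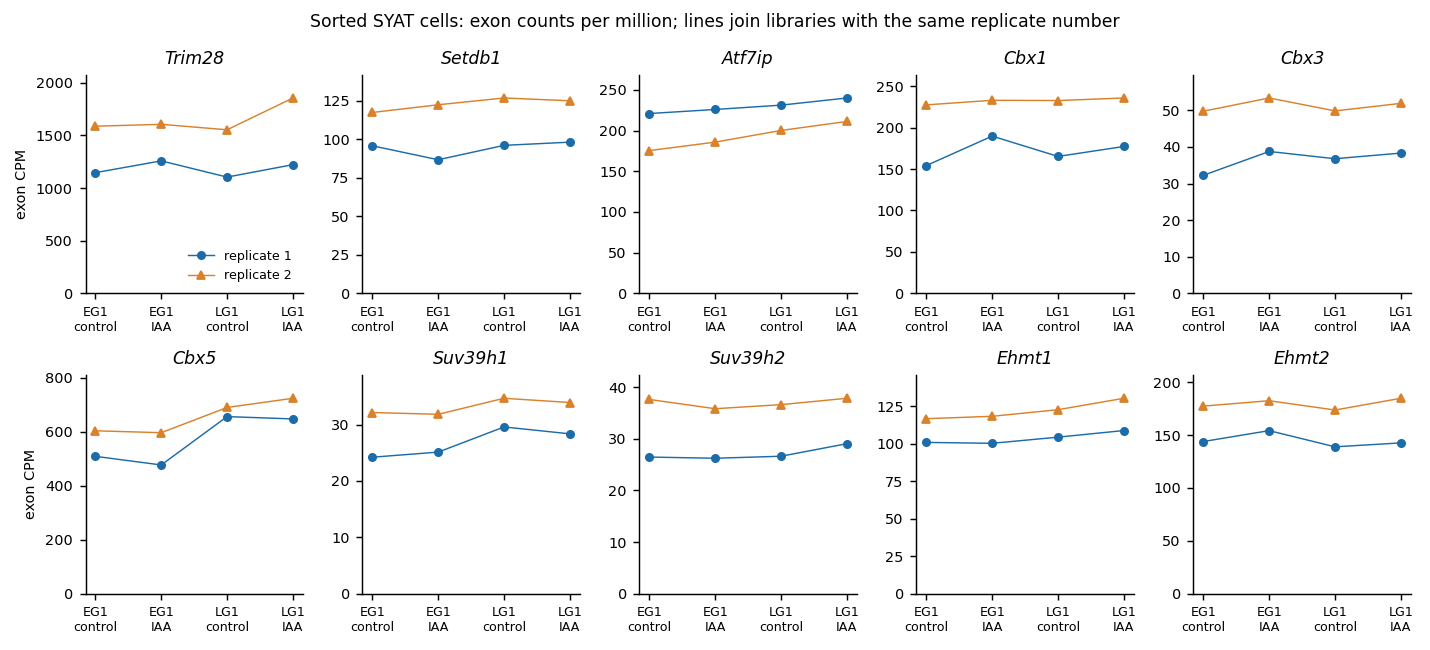
Exon CPM (linear axis from 0) of the 10 genes in sorted SYAT cells; lines join the 4 libraries with the same replicate number. Replicate 2 lies above replicate 1 for 9 of 10 genes, and Cbx5 is higher in LG1 than in EG1 for both replicates.

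Cbx5 was the one member called in sorted exon columns once the replicate number was a block. It was at 508 and 603 CPM in EG1 controls and 655 and 689 CPM in LG1 controls, and the 2 groups did not overlap. The log2 fold change from EG1 to LG1 was 0.28 ± 0.17 (SE, edgeR unadjusted p 0.148) without the block and 0.28 with it (unadjusted p 0.000481, adjusted p 0.0336), where 7.31% of the genes were called with the block. With IAA the values were 476 and 596 CPM in EG1 and 647 and 723 CPM in LG1. The response to IAA differed between LG1 and EG1 by 0.08 (95% interval -0.48 to 0.64). In the intron columns, 0 of 9 members passed with IAA in EG1 (2.28% of 17441 genes) and 0 in LG1 (3.94%), by edgeR and by DESeq2. Both results come from 1 fit over the EG1 and LG1 intron columns, whose contents differ. With the block Cbx1 passed in LG1, with a log2 fold change of 0.34 (unadjusted p 0.0212, adjusted p 0.491) where 9.02% of genes did. Its LG1 introns were at 105 and 136 CPM in controls and 134 and 170 CPM with IAA, and the groups overlapped.

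Other genes of the same pathways, in lists written with earlier results of these data known, gave few calls. In the time course, none of the 31 KRAB zinc finger and TRIM28 cofactor genes, 16 other H3K9 methylation and HUSH genes, 10 H3K9 demethylase genes and 20 HP1 partner genes tested passed the threshold in the exon columns at 6 h or 8 h by edgeR, and none had a slope past an adjusted p under 0.05. At an unadjusted p under 0.05, 7 of the 31 cofactor genes (6 higher and 1 lower), 2 of the 16 (both lower), 1 of the 10 (higher) and 4 of the 20 (3 higher and 1 lower) were counted at 6 h, where 16.1% of all genes were. At 8 h the counts were 1, 2, 0 and 0, beside 13.6% of all genes. Of 29 genes known to be repressed by SETDB1, TRIM28 or G9a in embryonic stem cells, mostly germline genes, 16 were tested. None passed, and their median log2 fold change was -0.29 at 6 h and -0.39 at 8 h, beside 0.01 and 0.03 over all genes. At an unadjusted p under 0.05, 1 of the 16 was counted at 6 h and 1 at 8 h, each lower. The shares of all genes were 16.1% and 13.6%. With 4 h of IAA the exon median of this list was -0.33 in wtSRCAP cells, -0.27 in cdSRCAP cells and 0.008 in CGR8 cells. What these medians reflect was not tested. Between LG1 and EG1 controls, 2 of the 20 HP1 partner genes and 2 of the 31 cofactor genes tested passed the sorted-cell threshold, all higher in LG1, where 1.44% of all genes passed. Aurkb, the kinase of the chromosomal passenger complex, was at 9.77 and 15.2 CPM in EG1 and 27.2 and 31.1 CPM in LG1, a log2 difference of 1.22 ± 0.30 (SE). Sgo1, which protects centromeric cohesion, differed by 0.46 ± 0.16, the maintenance DNA methyltransferase gene Dnmt1 by 0.46 ± 0.17 and Zfp42 (REX1) by 0.40 ± 0.16, all with an edgeR adjusted p of 1.0. With IAA in LG1, the meiotic gene Tex11, 1 of 14 repressed genes tested, passed at 2.26 and 2.29 CPM against 3.13 and 4.77 CPM in controls, where 1.02% of all genes passed. In the EG1 intron columns, Fkbp6 and Stag3, 2 of 15 repressed genes tested, also passed with IAA (2.28% of all genes did), at no more than 2.6 CPM in any EG1 library, and Stag3 is listed at 0 in 3 of these 4 libraries. In the introns of cdSRCAP controls Prdm16, a gene of the PRDM methyltransferase family and 1 of 14 other H3K9 methylation and HUSH genes tested, was at 83.0 and 55.5 CPM against 14.6 and 21.4 CPM in wtSRCAP controls, a log2 difference of 1.94 ± 0.28 (SE, edgeR adjusted p 0.0455), where 0.102% of all genes passed. In the exon columns of the same libraries Prdm16 was at 8.74 and 4.76 CPM against 4.99 and 3.86 CPM, and the groups overlapped.

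The genes whose condition means followed Trim28 most closely were Eif4h (Pearson r = 0.982 over 15 conditions), Rpl18 (0.976), Rnf126 (0.976), Pym1 (0.976) and Mark2 (0.972), among 17481 genes tested in all 4 tables and with each gene centred within its table. Without the 6 h condition of SYAT cells, r was between 0.962 and 0.973 for these 5 genes. The points share libraries and depth, so these values are a description.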

How the data were processed

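Nuclear RNA-seq of mouse embryonic stem cells was used from 4 count tables, with groups and replicates taken from the labels. The study calls the replicates independent and biological. According to the study's methods and processing notes, the authors used STAR for alignment (mm10) and featureCounts for counting over exons and introns of GENCODE vM25. SAMtools 1.10, Picard and DESeq2 are also named in the notes. The authors deposited whole-number counts per gene, without normalization, with an exon and an intron column per library. Whether counting used strand is not given in the sources used here. The authors' tables of their own comparisons (fold changes and p-values) were not used.

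Symbols and coordinates (GRCm38) came from GENCODE vM21, which matched 55141 of 55401 identifiers without the version and all 10 members with it. In R 4.3.3, edgeR 4.0.16 (filterByExpr by condition with minimum count 10 and minimum total 15, TMM, glmQLFit and glmQLFTest) was fitted to each table and layer over all its libraries, with Benjamini-Hochberg adjustment over all genes tested. Standard errors are the log2 fold change divided by the root of the F statistic. DESeq2 1.42.0 with shrinkage, other scaling, no filter, a replicate block, single pairs of conditions, subtraction of exon from intron counts and the omission of single libraries were the alternatives. The time slope and the subtraction in EG1 alone were chosen after seeing the data. The code was tested on simulated counts.

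The members and gene lists were chosen with earlier results of these data known. All 10 members are described, pathway genes are named where they passed a threshold (at most 5 per comparison, by smallest p), and the 5 genes most like Trim28 by Pearson r over condition means of log2(CPM + 0.5). Same-numbered libraries deviated together in sorted cells (6 of 6 pairs with r over 0.1 in exon columns, 0.372 to 0.587, and in intron columns, 0.141 to 0.638) and in wtSRCAP and cdSRCAP exon columns (0.26 to 0.376), where numbers were taken to pair the libraries. In the SYAT time course, 6 of 10 exon pairs (0.267 to 0.589) and 8 of 10 intron pairs had an r over 0.1, and the 4 exon pairs below it all involved 6 h. As not every pair passed, the fits there were kept without the block, and the blocked slopes are given beside them. No 2 libraries were identical. P-values rest on a spread estimated for each gene over all libraries of a fit and moderated across genes, with 2 libraries per condition. In the time slope, departures from a straight line count as spread too. Read counts are subject to counting error.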

Additional observations from a re-analysis of the deposited data

How the results depend on the processing

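Of 27 comparisons with 0 members called, the exceptions to a count of 0 under the alternatives run were as follows. At 6 h in SYAT exon columns, 2 members (Trim28 and Ehmt2) were called without a filter on low counts, and leaving out 1 library gave 0 to 2 calls, as it did in the intron columns (0 to 2). The 2 calls came without the first 6 h library. With the replicate block, 1 member was called in sorted exon columns between LG1 and EG1 controls (Cbx5) and 1 in LG1 introns with IAA (Cbx1), in edgeR and in DESeq2 alike. In the introns of the wtSRCAP and cdSRCAP lines with IAA, 1 member (Ehmt2, lower in cdSRCAP) was called without the filter and in DESeq2 with the block. For the calls without the filter and the DESeq2 calls with the block, the shares of all genes are not given here. In edgeR the block changed no other call of a member between 2 conditions, apart from the intron columns of LG1 and EG1 controls, whose contents differ: 7 members were called there as deposited, 8 with the block and 0 after exon counts were subtracted in EG1. With the replicate number as a block, the time slope called 2 members in the exon columns instead of 1 (Cbx5, and Atf7ip with an edgeR adjusted p of 0.0201). It called 1530 of 19205 genes there with the block and 643 without it. Leaving out 1 library gave 0 to 2 members in the exon and 0 to 2 in the intron columns, while 39 to 1577 of all genes had an exon slope past the threshold. Subtraction turned the Cbx5 intron value at 6 h from -0.33 to 0.094. Of 2716 alternative values of single members, 350 had the other sign. Counts over all genes depended on the tool: in exon columns, edgeR, DESeq2 and edgeR with the block called 2, 117 and 500 genes in CGR8, 13, 567 and 823 in SYAT cells at 6 h, 1, 378 and 634 at 8 h, 303, 136 and 1537 between LG1 and EG1 controls, and 1, 14 and 612 with IAA in wtSRCAP cells. The time slope and the subtraction in EG1 were chosen after seeing the data. Subtraction was not run for wtSRCAP, cdSRCAP or LG1 introns, which hold no exonic reads. The cause of these changes was not tested. Depth limits intron values, with 16 to 54 counts a library for Suv39h1 in the SYAT time course and 85 to 191 for Ehmt2 in the wtSRCAP and cdSRCAP lines.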
